A study of Mus musculus with 27 samples.

Results

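Vegfa, Kdr, Flt1, Tek, Angpt2, Cdh5, Pecam1, Vwf, Emcn and Cldn5 were followed over 27 prostate tumours of mice. A gene was included where an array row carried its symbol and no other, with the row of the highest mean kept where a gene had several. All 10 genes were found, each with 1 row, among 22180 genes named in this way. The tumours came from transgene-positive F2 males of a cross between C57BL/6-Tg(TRAMP)8247Ng/J and PWK/PhJ mice, bred from transgene-negative sires and transgene-positive dams. They were taken at 30 weeks or at a humane endpoint, with the age at collection of each male not used here, and 1 array was run on the total RNA of each tumour. Every tumour carried the transgene, and the labels give a single group with no treatment and no normal prostate, so the levels below are set against each other and against other genes over tumours. In the TRAMP model the probasin promoter drives the SV40 early region in prostate epithelium, so the transgene acts in epithelial cells and vessel cells come from the host.

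Vascular endothelial growth factor A, the product of Vegfa, is secreted by tumour, stromal and myeloid cells and is induced by hypoxia through HIF transcription factors. It binds receptors on endothelial cells, of which Kdr (VEGFR2) carries most of the growth and permeability signal and Flt1 (VEGFR1) binds the ligand tightly and acts in part as a decoy. Angiopoietin 2 (Angpt2), stored in and released by endothelial cells, modulates the receptor Tek (Tie2), which keeps mature vessels quiescent. Cdh5 (VE-cadherin), Pecam1 (CD31) and Cldn5 (claudin 5) build endothelial junctions, Vwf is the clotting protein of endothelial Weibel-Palade bodies and of platelets, and Emcn (endomucin) is a sialomucin of venous and capillary endothelium. The ligand is thus made mostly outside the endothelium, and the other genes mostly within it.

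The deposited values are log2 levels, with array medians between 5.67 and 5.82. In a bulk tumour, fewer endothelial cells and less RNA per endothelial cell cannot be told apart. Tumours P471, P966, P425 and P1276 stood apart from the rest: their neuroendocrine scores lay between -2.94 and -1.66, whereas the lowest of the other 23 tumours was -0.17. A score is the mean over the genes of a list of the log2 level minus that gene's mean over tumours. P425 also had the lowest mitosis score of all tumours, -1.92, and the highest adipose score, 2.93. In P471, P966 and P1276 the mitosis scores lay between -0.24 and 0.26 and the adipose scores between -0.29 and 0.65. The reason for this difference was not tested. Results that rest on these 4 tumours are given with and without them. The 5 luminal epithelial markers reported here had medians between 7.04 and 10.8. The 14 measured genes of the endothelial index, a list that holds none of the 10 genes, had medians between 4.66 and 7.32.

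Vegfa, the ligand, was at 8.47 in its lowest tumour (P502), 9.89 in the median tumour and 10.8 in its highest (P311). That is a 5.07-fold range, with an SD of 0.65 (n = 27). P219 was the next lowest at 8.72 and P474 the next highest at 10.7, so neither end rested on 1 tumour.

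The VEGF receptors had smaller SDs, on array rows of lower level than that of Vegfa. Kdr ran from 5.90 in P509 through a median of 6.94 to 7.88 in P474, with an SD of 0.45. Flt1 ran from 5.47 in P509 through a median of 6.13 to 7.12 in P1276, with an SD of 0.38. P1469 was also at 7.12 for Flt1, and the next tumour below these was P471 at 6.65, so the upper end of Flt1 was held by a pair of tumours.

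Tek, the angiopoietin receptor, ran from 5.30 in P803 through 6.08 to 7.07 in P966, with an SD of 0.56. Its ligand Angpt2 ran from 4.87 in P1394 through 5.55 to 7.83 in P803, with an SD of 0.79. P803, P474 (7.37) and P1469 (7.36) were the upper end of Angpt2.

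Of the junction genes, Cdh5 had the widest span, from 5.79 in P509 through 7.85 to 10.9 in P474, a 35.1-fold range with an SD of 0.88. P474 stood above the next tumour, P471 at 9.19, and P509 below the next lowest, P912 at 7.26. Pecam1 ran from 6.01 in P509 through 7.03 to 8.09 in P471 (SD 0.48). Cldn5 ran from 5.13 in P509 through 5.84 to 6.71 in P1276 (SD 0.38). Emcn ran from 4.44 in P509 through 6.07 to 7.46 in P235 (SD 0.69). The median level over all array rows was 5.79. Of the 27 tumours, 16 lay below it for Angpt2, 11 for Cldn5 and 9 each for Tek and Emcn.

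Vwf, the secreted clotting protein, did not form a single range. It lay between 5.76 (P1218) and 7.67 in 23 tumours and at 8.59 in P1276, 10.3 in P1469, 10.4 in P803 and 10.9 in P569. A mixture of 2 normal components described Vwf better than 1 by 19.7 in BIC. The 23 and the 4 tumours were split by this mixture on the same Vwf values, so that they do not overlap follows from the split. How many of all genes would be split in this way was not counted. For each of the other 9 genes the gain was under the 6 set as the threshold. The SD of Vwf, 1.40, was above that of 98.8% of all genes. The median SD of the 10 genes was 0.61, beside 0.30 over all genes. Genes of similar level were not compared, so these SDs do not show that the 10 genes vary more than others of their level.

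**Figure D1:**
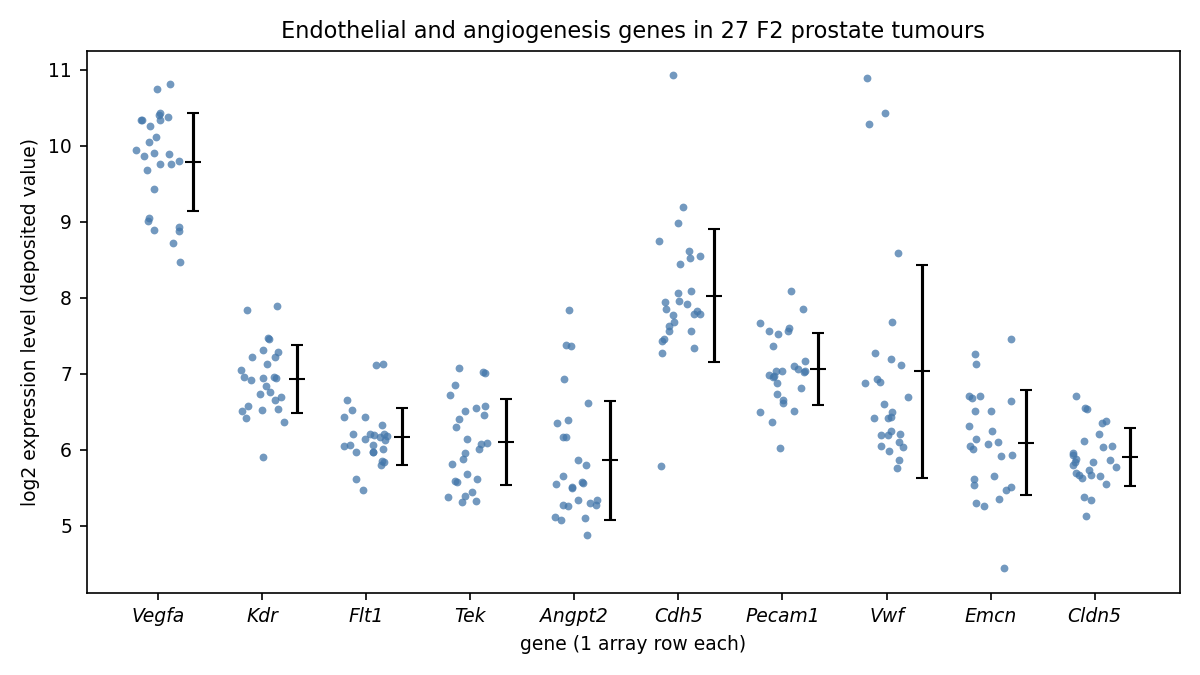
Log2 level (vertical axis) of each of the 10 genes (horizontal axis) in 27 tumours, with 1 point per tumour and the mean ± SD over the 27 tumours as a bar at the right of each gene. Each gene is read from its own array row, so heights are compared within a gene only; 4 tumours stand above the rest for Vwf, and Cdh5 has 1 tumour far above and 1 far below the others.

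The tumours at the ends recurred across genes. P509 was the lowest tumour for 6 of the 10 genes (Kdr, Flt1, Cdh5, Pecam1, Emcn and Cldn5), among the lowest 3 for 8, and below the median for all 10. It also had the lowest endothelial index, -0.59, the lowest pericyte score, -0.93, and the lowest smooth muscle score, -1.26. Its fibroblast score was -0.86. The Vegfa level of P509, 9.68, was close to the median tumour. At the other end, P471 was among the highest 3 tumours for 6 genes and P474 for 5. P471 had the highest fibroblast score (1.66) and macrophage score (1.31) of all tumours, and P474 the highest pericyte score (0.67); the part of these cell types in the levels of the 10 genes was not tested.

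**Figure D2:**
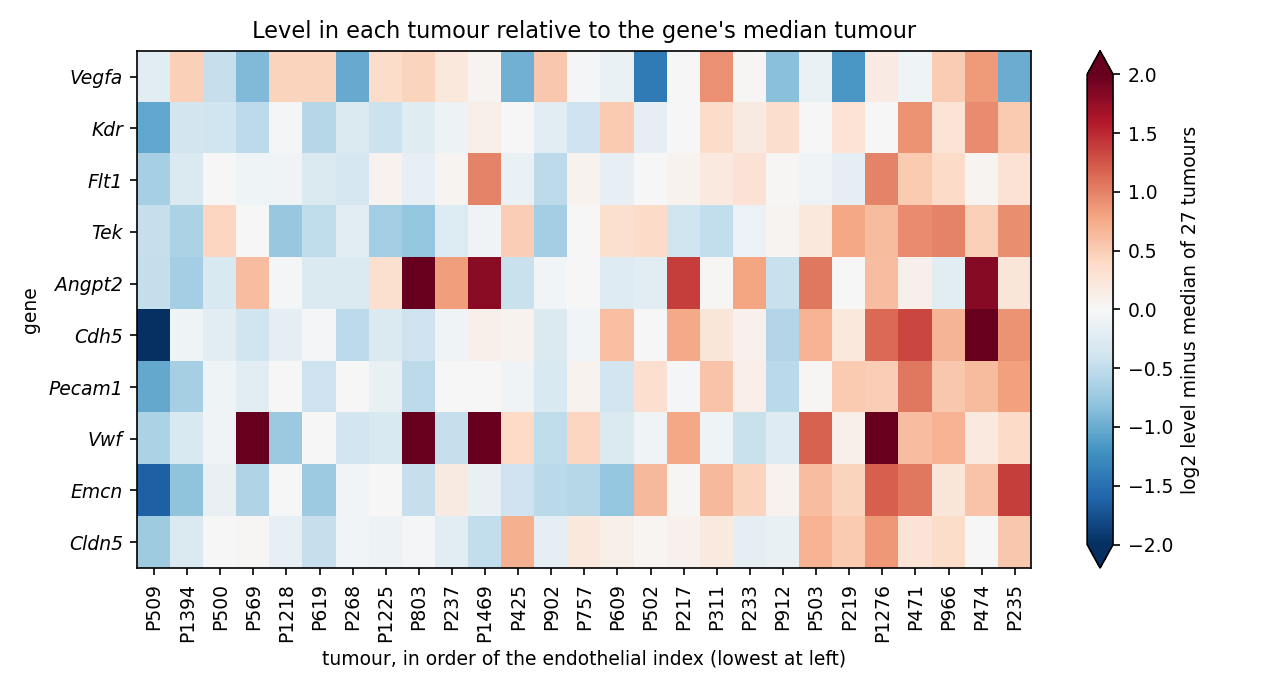
Log2 level of each gene (rows) in each tumour (columns) minus that gene's median over 27 tumours, with tumours in order of the endothelial index, lowest at the left; red is above and blue below the median, and colours end at 2 log2 units either way. Kdr, Tek, Cdh5, Pecam1, Emcn and Cldn5 turn from blue to red along the order, Vegfa does not, and the dark red cells of Vwf and Angpt2 lie at the left and middle as well as at the right.

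The first comparison asked whether tumours with more Vegfa held more endothelial RNA. Vegfa and the endothelial index showed no relation beyond the spread between tumours: Pearson's r was -0.05 (95% interval -0.42 to 0.34, n = 27; two-sided permutation p = 0.81, Benjamini-Hochberg adjusted over 5 relations with the indices 0.81). Spearman's rho was -0.02 (permutation p = 0.94, adjusted 0.94). Without P502 and P219, the tumours farthest from the Vegfa median, r was 0.03. Tumours with similar Vegfa lay far apart on the index: P509 had the lowest endothelial index, -0.59, with a Vegfa level of 9.68, and P471 an index of 0.34 with Vegfa at 9.80. The interval includes moderate relations of either sign, so the absence of a relation is not shown.

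Gene by gene the picture was the same. In a limma fit of all genes on Vegfa scaled to an SD of 1 (0.65 log2 units), 0.149% of the 22179 genes tested rose and 0.284% fell at an adjusted p under 0.05, and 0 of the other 9 genes passed. These were 33 rising and 63 falling genes, against 65 and 62 when arrays were centred on their medians. At an unadjusted p under 0.05, 2800 genes of the whole table passed, and 1 of the 9, Tek. Tek, the angiopoietin receptor, had the largest slope in size, -0.25 ± 0.10 log2 (SE) per SD of Vegfa, with a limma adjusted p of 0.271. Its correlation with Vegfa was -0.44 (95% interval -0.71 to -0.08; permutation p = 0.02, rho -0.46 with permutation p = 0.016), and -0.37 without P502 and P219 (permutation p = 0.068), so it rests in part on these tumours. Angpt2 (0.24 ± 0.14, limma adjusted p = 0.503) and Cdh5 (0.22 ± 0.16, limma adjusted p = 0.607) had the largest positive slopes. Both VEGF receptors were close to 0: Kdr had a slope of 0.03 ± 0.09 and Flt1 of 0.04 ± 0.07, with 95% intervals of -0.15 to 0.21 and -0.11 to 0.19. None of the 14 endothelial index genes passed in this limma fit, 0 also at an unadjusted p under 0.05, and their slopes lay between -0.12 and 0.11.

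The other genes of the pathway did not pass on Vegfa either. This held for 0 of 7 other VEGF and angiopoietin ligands, 0 of 4 other receptors and co-receptors, 0 of 7 tip cell genes, 0 of 5 angiogenesis inhibitors and 0 of 8 pericyte genes. At an unadjusted p under 0.05 the counts in limma were 2, 0, 2, 0 and 0. The tip cell genes, known from sprouting endothelium, all had slopes above 0, from 0.07 to 0.26. Their median was 0.17, beside a median of 0.01 over all genes. The cause of the shared sign was not tested. Of the lymphatic genes 1 of 5 fell, Mmrn1, which encodes multimerin 1 (slope -0.41 ± 0.09, limma adjusted p = 0.0293). Of the smooth muscle genes 2 of 6 fell, the muscle filament gene Des (-0.90 ± 0.16, limma adjusted p = 0.00629) and the calponin gene Cnn1 (-0.87 ± 0.20, limma adjusted p = 0.0439). Mmrn1 lost its call without P425, P235, P219, P902 or P268 (limma adjusted p from 0.0548 to 0.143) and Cnn1 without any 1 of 19 tumours, up to 0.193 without P219. Des lost its call without both P502 and P219 (limma adjusted p = 0.0623). The smooth muscle score was highest in P219 (2.76), the tumour with the second lowest Vegfa level, and P425 (2.56). With fibroblast, smooth muscle and macrophage scores as covariates, 0 genes passed on Vegfa in limma (1804 at an unadjusted p under 0.05), against 96 without them.

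**Figure D3:**
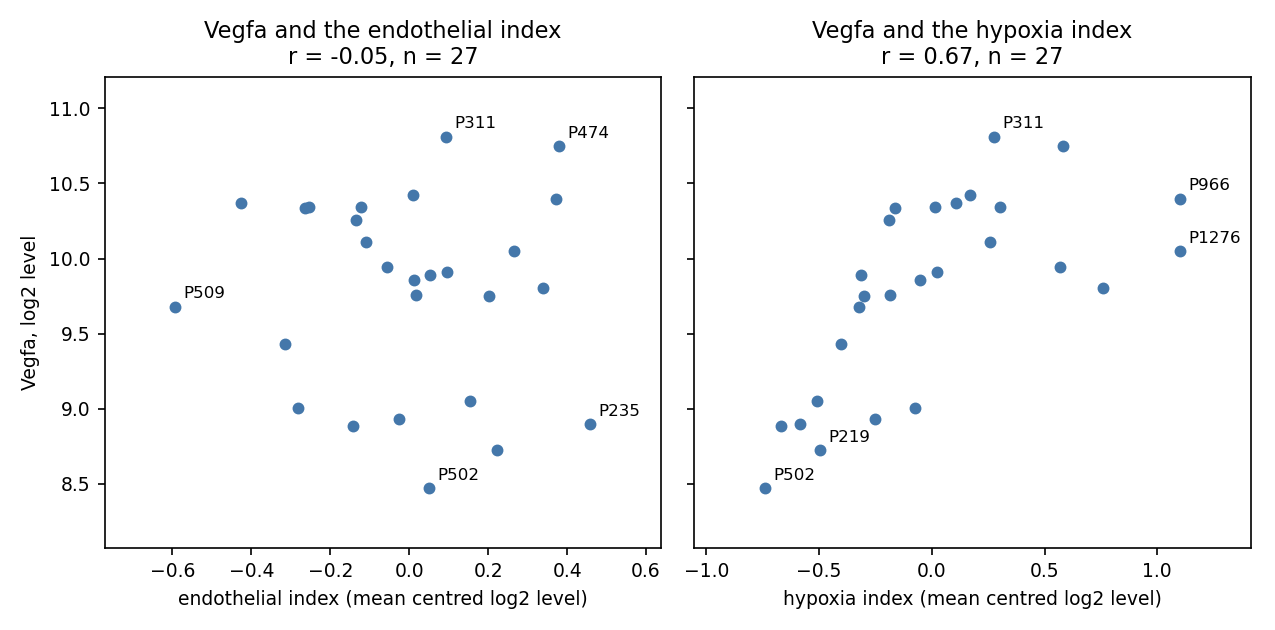
Vegfa log2 level (vertical axis) against the endothelial index of 14 genes (left) and the hypoxia index of 15 genes (right), both as mean centred log2 levels, with 1 point per tumour. The left panel shows no slope (r = -0.05), and in the right panel Vegfa is low where the hypoxia index is low and levels off at the tumours with the highest index (r = 0.67).

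Vegfa rose with genes induced by hypoxia. The hypoxia index held 15 measured genes without Vegfa, most of them HIF targets of glycolysis, mitochondrial adaptation and oxygen sensing. Its correlation with Vegfa was 0.67 (95% interval 0.39 to 0.84, n = 27; permutation p = 0.00022, adjusted 0.0011). Spearman's rho was 0.77 (permutation p = 2e-05, adjusted 0.0001), and r was 0.60 without P502 and P219 (permutation p = 0.0014). P502 had both the lowest Vegfa and the lowest hypoxia index, -0.74, whereas P966 and P1276, with the highest index of 1.10 each, had Vegfa levels of 10.4 and 10.05. Without P471, P966, P425 and P1276, r was 0.81 (permutation p = 2e-05). Whether this correlation differs from that with the endothelial index was not tested. Both use the same Vegfa values and tumours, so their 95% intervals cannot be compared as if independent.

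In the fit on Vegfa, 5 of the 15 hypoxia genes rose and 0 fell, where 0.149% of all genes rose. Bnip3, a HIF target of mitochondrial turnover, had a slope of 0.62 ± 0.10 (limma adjusted p = 0.00244). P4ha1, a collagen prolyl hydroxylase subunit, had 0.46 ± 0.07 (limma adjusted p = 0.00200). Pdk1, which diverts pyruvate from mitochondria, rose by 0.36 ± 0.08, Higd1a by 0.28 ± 0.06 and the glycolytic Pgk1 by 0.23 ± 0.05, with limma adjusted p of 0.0293, 0.0272 and 0.0140. The prolyl hydroxylase Egln3 had the largest slope, 0.78 ± 0.21, and did not pass (limma adjusted p = 0.0801), and Car9 was the only gene of the list with a slope below 0, -0.06 ± 0.05 (limma adjusted p = 0.617), which turned to 0.15 with the mean of all its rows. Without P502 and P219 only P4ha1 of the 5 still passed in limma. With single tumours left out, Higd1a lost its call without P425, P235, P219, P311 or P474 (limma adjusted p from 0.0549 to 0.116), Pdk1 without P219, P502 or P268 (0.0693 to 0.0956) and Pgk1 without P219 (0.0508). With ranks of Vegfa as predictor, Pdk1 (limma adjusted p = 0.0510) and Higd1a (0.0540) did not pass. Egln3 passed without P912 (0.0370).

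The stretch before the start of these genes is shown because hypoxia-inducible factors bind the core letters ACGTG or GCGTG. Sequences are from RefSeq (GRCm38.p6), the 250 bases before the outermost annotated start on the gene's strand, with matches on either strand in capitals. The Vegfa window spans chr17:46032378-46032627 (minus strand), that of Bnip3 chr7:138909507-138909756 (minus strand) and that of Pgk1 chrX:106186850-106187099 (plus strand).
Vegfa: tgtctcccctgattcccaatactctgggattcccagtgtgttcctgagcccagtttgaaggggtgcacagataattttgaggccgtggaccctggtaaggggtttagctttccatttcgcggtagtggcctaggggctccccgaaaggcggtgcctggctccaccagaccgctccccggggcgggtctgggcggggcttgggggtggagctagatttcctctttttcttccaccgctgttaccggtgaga
Bnip3: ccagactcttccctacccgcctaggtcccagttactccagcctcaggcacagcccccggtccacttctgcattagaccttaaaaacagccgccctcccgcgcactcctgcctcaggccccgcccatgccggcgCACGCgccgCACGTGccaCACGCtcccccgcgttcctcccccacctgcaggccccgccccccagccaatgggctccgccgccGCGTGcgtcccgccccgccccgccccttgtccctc
Pgk1: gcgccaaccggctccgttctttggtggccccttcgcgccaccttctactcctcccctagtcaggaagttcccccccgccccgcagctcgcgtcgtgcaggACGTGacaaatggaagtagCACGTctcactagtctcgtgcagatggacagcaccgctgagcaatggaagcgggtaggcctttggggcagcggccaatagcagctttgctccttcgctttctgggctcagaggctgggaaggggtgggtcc
The Bnip3 window held 5 matches, some of which overlap, the Pgk1 window 2 and the Vegfa window 0. The RefSeq table lists 2 windows for Vegfa, and only the outermost was searched. Over all 27025 genes with a window, 38.6% held a match. It was found for 13 of the 14 hypoxia index genes with a window, among them all 5 index genes that rose with Vegfa. The other genes that rose with Vegfa were not examined as a set. Most index genes were listed as HIF targets, so their share does not bear on the relation with Vegfa. Of the endothelial and angiogenesis genes, 3 of 6 members with a window held a match (Kdr, Flt1 and Emcn). A match is a description of letters in this window and says nothing of binding.

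The second comparison set each gene against endothelial content. In the fit of all genes on the endothelial index (SD 0.26), 0.839% of the 22166 genes tested rose and 0.307% fell, and 6 of the 10 genes rose. The venous and capillary gene Emcn rose by 0.56 ± 0.08 log2 per SD of the index (limma adjusted p = 0.000275) and the receptor Kdr by 0.37 ± 0.05 (limma adjusted p = 0.000275). The junction genes rose by 0.66 ± 0.11 for Cdh5, 0.38 ± 0.06 for Pecam1 and 0.26 ± 0.06 for Cldn5, with limma adjusted p of 0.00234, 0.000539 and 0.0226. Tek rose by 0.39 ± 0.08 (limma adjusted p = 0.0132). Flt1 had a slope of 0.20 ± 0.06 and missed the threshold (limma adjusted p = 0.0971), but passed without P1469 (0.0386). The remaining 3 were Angpt2 at 0.20 ± 0.15 (limma adjusted p = 0.542), Vwf at 0.06 ± 0.27 (0.944) and Vegfa at -0.03 ± 0.12 (0.938). The slope of Vwf pools both of its ranges, and in the 23 tumours of the lower range its r with the index was 0.61.

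Several of these calls depended on single tumours. Cldn5 lost its call without P966 (limma adjusted p = 0.0507) or P509 (0.0750). Tek passed whichever single tumour was left out. Without P471, P966, P425 and P1276, 4 of the 6 still passed, and Tek (limma adjusted p = 0.155) and Cldn5 (0.0791) did not. The number of genes that passed over the whole table, 254, was 83 without P966, 91 without P471, 125 without P1394 and 508 without P425.

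Genes of several other cell type lists also passed on the index. Of the pericyte genes 4 of 8 rose, among them Pdgfrb (0.58 ± 0.07, limma adjusted p = 8.01e-05), the receptor by which endothelium recruits mural cells, and the potassium channel subunit Abcc9 (0.38 ± 0.06, limma adjusted p = 0.00234). Of the tip cell genes 2 of 7 rose, among them Pdgfb, the ligand of that receptor (0.27 ± 0.05, limma adjusted p = 0.0127), and of the other receptors 1 of 4, the apelin receptor Aplnr (0.30 ± 0.07, limma adjusted p = 0.0197). Of the fibroblast genes 4 of 8 rose, with Fn1 at 0.63 ± 0.13 and Postn at 0.65 ± 0.16 (limma adjusted p = 0.0119 and 0.0377). The platelet list had 1 of 5 (Pf4, 0.39 ± 0.09, limma adjusted p = 0.0255), smooth muscle 1 of 6 (Acta2, 0.57 ± 0.13, limma adjusted p = 0.0235), and 8 macrophage, 5 T cell, 5 adipose and 5 lymphatic genes 0, with 6, 2, 1 and 2 at an unadjusted p under 0.05 in limma. Leaving out 1 tumour ended the call of Aplnr (P966 or P471, limma adjusted p 0.0684 and 0.0588), Pf4 (P471 or P235, 0.0588 and 0.0594) and Acta2 (P509 or P1394, 0.0804 and 0.0659). Postn lost its call without any 1 of 8 tumours, up to a limma adjusted p of 0.111 without P966. Without P471, P966, P425 and P1276, Fn1 (limma adjusted p = 0.186), Pdgfb (0.144), Aplnr (0.136), Pf4 (0.0980) and Postn (0.347) did not pass. The fibroblast score ranged from -1.49 to 1.66 and the pericyte score from -0.93 to 0.67 over tumours. The part of the pericyte score in the slopes of the 10 genes was not tested. With fibroblast, smooth muscle and macrophage scores in the fit, Kdr alone of the 6 still passed (0.43, limma adjusted p = 0.0234); Cdh5 kept a slope of 0.69 and Emcn of 0.48, both with a limma adjusted p of 0.204.

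**Figure D4:**
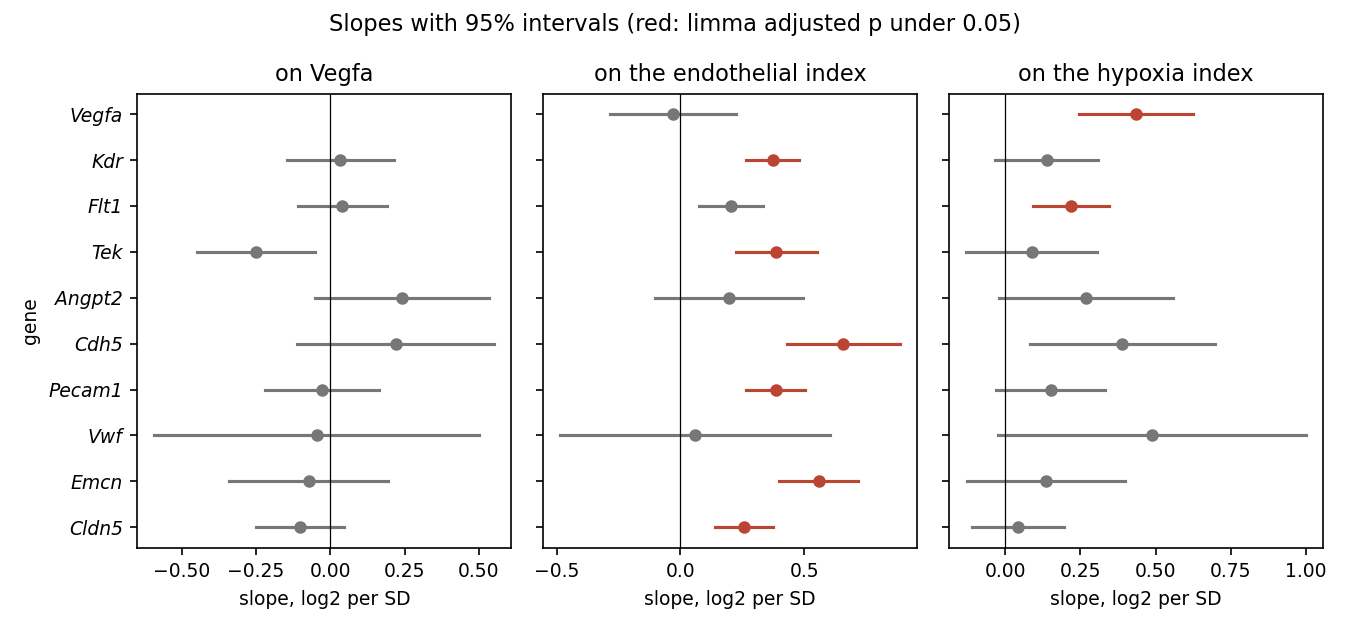
Slope of each gene (rows) in log2 units per SD of the predictor, with its 95% interval, in limma fits on Vegfa (left), the endothelial index (middle) and the hypoxia index (right) over 27 tumours; red marks an adjusted p under 0.05 over all genes of the fit. None of the 9 genes is red on Vegfa, 6 of 10 are red on the endothelial index and 2 of 10 (Vegfa and Flt1) on the hypoxia index.

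Kdr, Flt1, Tek, Cdh5, Pecam1, Emcn and Cldn5 rose and fell together over tumours. Of the 45 pairs of the 10 genes, 9 passed with either gene as the predictor of a limma fit over all genes and 15 with at least 1 of them, and none of these 15 included Vegfa. The share of all genes that rose in these fits was 0.212% for Kdr, 0.28% for Cdh5, 0.302% for Emcn, 3.66% for Pecam1, 4.45% for Cldn5, 6.38% for Vwf and 8% for Tek, and it was 0% for Flt1 and Angpt2 (3277 and 1689 genes at an unadjusted p under 0.05 in limma). The share that fell was 0.0271% for Cdh5, 0.0676% for Kdr, 0.126% for Emcn, 1.72% for Pecam1, 3.13% for Cldn5, 4.23% for Vwf and 5.86% for Tek, and all 15 pairs rose. Over the 21 pairs of Kdr, Flt1, Tek, Cdh5, Pecam1, Emcn and Cldn5, r lay between 0.35 and 0.88 with a median of 0.61. Angpt2 was left out of these pairs. Its r with the same genes ran from -0.10 with Tek and 0.007 with Cldn5 to 0.38 with Flt1 and 0.40 with Cdh5. With Vegfa, the 8 correlations over 27 tumours lay between -0.44 and 0.31.

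The closest pair was Pecam1 and Emcn, with r = 0.88 (95% interval 0.74 to 0.94; permutation p = 1e-05, the smallest that 100000 permutations can give) and a limma adjusted p of 6.89e-06. Without P471 and P509, r was 0.83. Kdr and Cdh5 followed with r = 0.79 (permutation p = 1e-05, limma adjusted p = 0.00268), which fell to 0.65 without P509 and P474, the tumours at the ends of Kdr. Cdh5 and Pecam1 had r = 0.72 (permutation p = 6e-05, limma adjusted p = 0.0146). Tek was nearest to Pecam1 (r = 0.68) and Cldn5 (r = 0.67), with limma adjusted p of 0.00331 and 0.00463. Flt1 and Cldn5 were the least alike of the 7, at r = 0.35 (permutation p = 0.073). The count of pairs past the threshold with the first gene as predictor, 12, was 6 without P509 and 7 without P471, and 2 without P471, P966, P425 and P1276.

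The windows of Emcn and Flt1 are shown because ETS factors such as Erg act on many endothelial genes through a core read here as AGGAAG on either strand. They span chr3:137340828-137341077 (plus strand) and chr5:147726012-147726261 (minus strand), with matches in capitals.
Emcn: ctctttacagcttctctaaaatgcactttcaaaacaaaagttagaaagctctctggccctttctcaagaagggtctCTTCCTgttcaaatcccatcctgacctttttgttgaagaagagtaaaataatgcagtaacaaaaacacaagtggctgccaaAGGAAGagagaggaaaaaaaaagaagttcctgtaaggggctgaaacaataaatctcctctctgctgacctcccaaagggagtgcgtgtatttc
Flt1: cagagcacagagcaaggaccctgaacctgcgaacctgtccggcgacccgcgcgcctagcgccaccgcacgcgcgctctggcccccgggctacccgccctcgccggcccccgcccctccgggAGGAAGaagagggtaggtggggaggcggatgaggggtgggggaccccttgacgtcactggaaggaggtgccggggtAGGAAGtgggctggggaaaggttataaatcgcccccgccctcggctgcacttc
Each held 2 matches. Of the genes with a window, 2 of 6 among the 10 genes and 5 of 7 in the endothelial index held a match, beside 29.2% of all 27025. Vegfa, Kdr, Tek and Cldn5 had none within these 250 bases.

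Vwf behaved in 2 ways. In the 23 tumours of its lower range its r with Kdr, Flt1, Tek, Cdh5, Pecam1, Emcn and Cldn5 was above 0, from 0.36 to 0.74. It was 0.74 with Cldn5 (permutation p = 6e-05, rho 0.77), 0.58 with Tek (permutation p = 0.0038, rho 0.65) and 0.55 with Cdh5 (permutation p = 0.0064, rho 0.72). It was 0.49 with Pecam1 (permutation p = 0.017), 0.48 with Flt1 (0.022), 0.43 with Emcn (0.039, rho 0.39 with permutation p = 0.067) and 0.36 with Kdr (0.091). With the endothelial index r was 0.61 over these 23 (95% interval 0.26 to 0.82; permutation p = 0.0022, adjusted 0.0055), and 0.56 without P509 and P1394. With Vegfa it was -0.09 (permutation p = 0.67). In the 4 tumours with high Vwf the other endothelial genes were not at their upper end. P569 and P803, with the highest Vwf, had Cdh5 levels of 7.45 and 7.43 and Pecam1 levels of 6.80 and 6.51, all below the median tumour, and endothelial indices of -0.28 and -0.12. P1469 had the second lowest Cldn5 level of all tumours, 5.34, beside the second highest Flt1. P1276 was the exception, with Cldn5, Emcn and Cdh5 all among the highest tumours. All 4 tumours had high luminal epithelium scores: 1.71 in P1276, 2.06 in P1469, 1.99 in P569 and 1.89 in P803. Some tumours with low Vwf also had high luminal scores, among them P425 (2.38), P219 (1.75) and P966 (1.67). The part of epithelial cells in the high Vwf levels was not tested.

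Angpt2, which is stored with Vwf in the same endothelial granules, shared part of the pattern of Vwf over tumours. It was above its median of 5.55 in all 4 tumours with high Vwf, at 7.83 in P803, 7.36 in P1469, 6.17 in P1276 and 6.16 in P569. The 23 other tumours reached 7.37 (P474), so the ranges overlapped. How many of all genes were above their medians in these 4 tumours was not counted. With Vwf as predictor over 27 tumours, both of its ranges pooled, Angpt2 passed (limma adjusted p = 0.00741). In that fit 6.38% of all genes rose and 4.23% fell. With Angpt2 as predictor Vwf did not pass (limma adjusted p = 0.252), and 0% of all genes did. Within the 23 tumours r was 0.36 (permutation p = 0.092, rho 0.29). Angpt2 and Tek, the ligand and its receptor, had r = -0.10 over 27 tumours (95% interval -0.47 to 0.29; permutation p = 0.61).

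**Figure D5:**
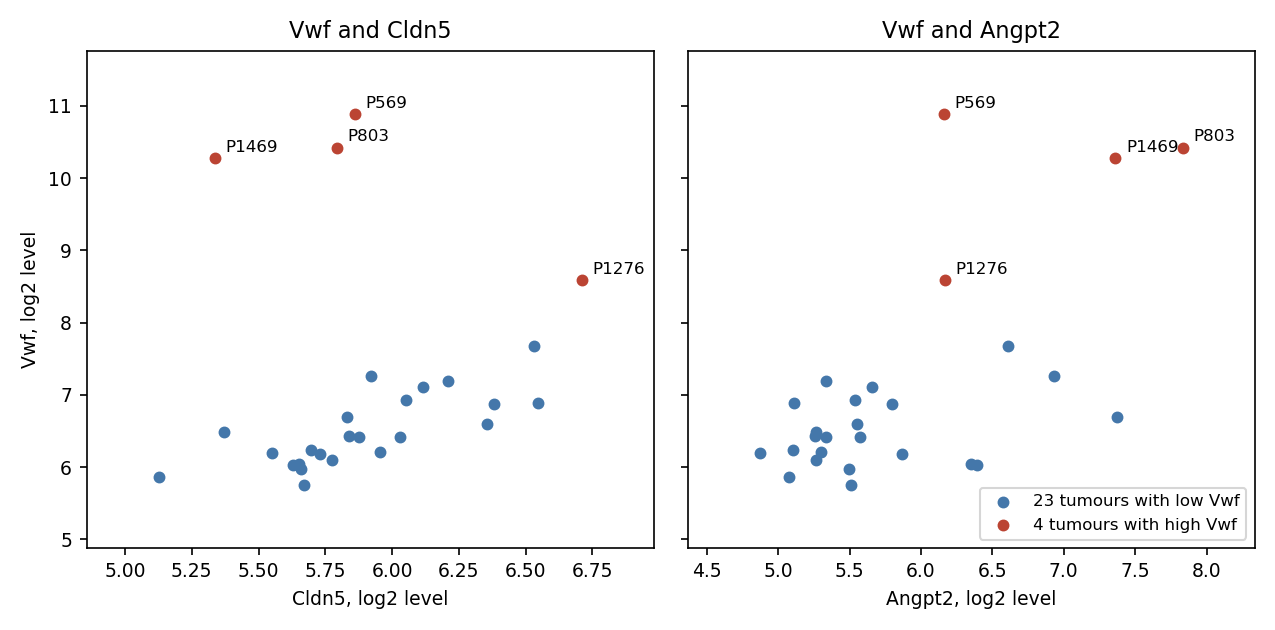
Vwf log2 level (vertical axis) against Cldn5 (left) and Angpt2 (right), with 1 point per tumour and the 4 tumours of the upper Vwf range in red. In the 23 blue tumours Vwf is higher where Cldn5 is higher (r = 0.74); the red tumours lie above at any Cldn5 level, and P803 and P1469 are high for both Vwf and Angpt2.

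On the hypoxia index (SD 0.50), where 4.58% of the 22165 genes tested rose and 2.58% fell, 2 of the 10 genes rose. Over all genes 1016 rose and 572 fell, against 1249 and 417 when arrays were centred on their medians. They were Vegfa (0.43 ± 0.09, limma adjusted p = 0.00623) and its receptor Flt1 (0.22 ± 0.06, limma adjusted p = 0.0290). Vegfa passed whichever single tumour was left out, and without P471, P966, P425 and P1276 (0.54, limma adjusted p = 0.00302). Flt1 did not: its limma adjusted p was 0.181 without P1276, 0.0830 without P966, 0.0698 without P471, 0.0505 without P268, 0.0501 without P1469 and 0.508 without all 4 tumours. Vwf (0.49 ± 0.25, limma adjusted p = 0.247) and Cdh5 (0.39 ± 0.15, limma adjusted p = 0.111) had large slopes that did not pass. The slope of Vwf pools both of its ranges. In the 23 tumours of its lower range, r of Vwf with the hypoxia index was 0.20 (permutation p = 0.36, rho 0.03). The whole count of 1588 genes was 325 without P966 and 359 without P1276, the tumours with the highest index, and 16 without both. The endothelial and hypoxia indices had r = 0.30 (permutation p = 0.13, adjusted 0.22, rho 0.19), 0.41 without P509 and P235 (permutation p = 0.044), and -0.04 without P471, P966, P425 and P1276.

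Of all genes, those most like Vegfa over the 27 tumours were Ak4 (r = 0.84), a mitochondrial adenylate kinase, the cytokine gene Mif (0.81) and P4ha1 (0.80). Mmp12 (0.79), Pfkfb3 (0.78), Ciart (0.77), Bnip3 (0.77), Snord53 (0.76), Zfp445 (0.75) and Snord52 (0.74) followed, and all 10 passed in limma, with adjusted p between 0.000199 and 0.0253. Mmp12 is a macrophage elastase and Pfkfb3 a regulator of glycolysis. At the other end stood Agr2 (r = -0.78), Defb1 (-0.78), Ccl28 (-0.77), Msmb (-0.76) and Mmp7 (-0.76), genes known from secretory epithelium, with limma adjusted p between 0.00200 and 0.00369. All 15 were picked by r over the same 27 tumours, so that they passed in limma follows largely from the choice. None of the 15 is among the endothelial lists, but the endothelial index holds only 14 of 22180 genes, so this absence carries no weight.

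For the other 9 genes the most alike were taken from genes outside the lists, unlike for Vegfa, so some pairs of the 10 genes were closer. For Kdr they were Rasgrp3 (r = 0.80), Adgrf5 (0.78) and Spsb1 (0.75), and for Emcn Ednrb (0.88), Adgrf5 (0.82) and Cd93 (0.81), so that Adgrf5 stood in both. For Pecam1 they were Rhoj (0.89), Gja1 (0.87) and Sparc (0.84), for Cdh5 Aqp1 (0.82), Cd109 (0.81) and Ccn5 (0.80), and for Cldn5 Itga5 (0.82), C2 (0.79) and Igfbp7 (0.79). Tek was closest to Lifr (0.84), Cp (0.84) and Anxa1 (0.83). In each of these 6 fits the named genes passed in limma, which follows largely from their choice by r over the same tumours. For Flt1 (Ahsg 0.74, She 0.73, Uevld 0.73) and Angpt2 (Fam169a 0.71, Nuak1 0.71, Cdh15 0.71) they did not, with limma adjusted p from 0.0520 to 0.0965 and from 0.142 to 0.252. For Vwf they were Sytl2, Myo1h and Cib3. Sytl2, which ranked first, was at 5.93 to 8.30 in the 4 tumours with high Vwf and at most 5.28 in the other 23, and Myo1h and Cib3 were each above all of the 23 in 3 of the 4. These genes were picked by r with Vwf over both of its ranges pooled. That they set the 4 tumours apart from the 23 therefore follows largely from this choice. How many of all genes do so was not counted. Within the 23 tumours, r with Vwf was 0.46 for Sytl2, 0.54 for Myo1h and 0.55 for Cib3.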

How the data were processed

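Each of the 27 tumours was measured on 1 array with biotin-labelled total RNA, and the labels name no second tumour of a male, so a p-value here measures the spread between these tumours. The authors deposited log2 expression values for 41345 array rows. Partek is named per the submitters' processing notes, with its version not given in the sources used here, nor how background and scale were treated. Arrays hold no read depth, so the number of arrays limits the precision.

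Rows were named from the platform annotation: 23521 had 1 symbol, 1814 several and 16010 none, and only rows with 1 symbol were used. They gave 22180 genes, of which 1082 had several rows and kept the row with the highest mean, and 22139 symbols were in the RefSeq table of GRCm38.p6. Of 142 genes in 18 lists, 131 were measured. The 10 genes and the lists were chosen with earlier results of these data known.

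All genes were fitted in limma 3.58.1 (R 4.3.3; lmFit, eBayes with a trend) on a predictor scaled to an SD of 1, with Benjamini-Hochberg adjustment over all genes and a threshold of 0.05. Predictors were Vegfa, the endothelial index, the hypoxia index (means of centred log2 values, with index genes left out of the test) and each of the 10 genes. Pearson and Spearman correlations had two-sided tests of 100000 permutations (Python 3.11.15, scipy 1.17.1). A gene was split into ranges where mclust 6.1.1 preferred 2 components by over 6 in BIC, with 3 or more tumours in the smaller one and an Ashman's D above 2, and correlations were then given within ranges of at least 6 tumours. The fits were tested on simulated data. Figures were drawn with matplotlib 3.10.9.

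Named genes were the 10 genes, the index genes, of every other list the 3 with the largest slopes on Vegfa and the endothelial index (given here where they passed), the 10 most and 5 least like Vegfa and the 3 most like each other gene that are in no list. Genes described on the hypoxia index outside the 10, gene neighbours on the chromosome, and list genes named because they alone passed were chosen after their values were seen. Alternatives were quantile normalization, centring of arrays, genes above the median level, the mean of a gene's rows, ranks of the predictor, 3 stromal scores as covariates, and tumours left out.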

Additional observations from a re-analysis of the deposited data

How the results depend on the processing

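The Vegfa and hypoxia index correlation kept its sign and its side of 0.05 in every setting tried (r 0.60 to 0.81, and 0.63 to 0.71 with single tumours left out), as did Vwf with the endothelial index in 23 tumours (0.54 to 0.61, and 0.56 to 0.64). Alternatives for pairs of the 10 genes, for the 2 indices together, for Vwf with each index and for Ecscr, Chgb, Scg3, Foxa1 and Insm1 were chosen after seeing the data. The counts of genes past the threshold moved most. On Vegfa, 96 became 24 with ranks, 9 without the 2 farthest tumours, 204 without P471, P966, P425 and P1276 and 0 with stromal scores (limma, 1804 at an unadjusted p under 0.05). It was 28 to 177 with single tumours left out: 28 without P219, 45 without P502 or P268, 51 without P425, 61 without P902, 62 without P235, 161 without P569 and 177 without P912. On the endothelial index, 254 became 50 without the 4 tumours and 7 with stromal scores, and 83 to 508 with single tumours left out (83 without P966, 91 without P471, 125 without P1394, 164 without P1218, 166 without P1276, 387 without P912, 508 without P425). On the hypoxia index, 1588 became 100 with ranks, 16 without the 2 farthest, 20 without the 4 and 3053 with stromal scores, and 325 to 2646 singly (325 without P966, 359 without P1276, 814 without P471, 2646 without P425). The 12 pairs of the 10 genes became 2 without the 4, and 6 to 13 singly (6 without P509, 7 without P471). The correlation of Vegfa with the endothelial index was 0.034 without the 2 farthest, 0.0058 with centred arrays and 0.25 with Cdh5 in place of the index, and -0.15 to 0.056 singly, above 0 without P235, P219 or P1394. That of both indices was 0.41 without the 2 farthest (permutation p = 0.044), -0.040 without the 4 and 0.20 to 0.42 singly, past 0.05 without P235 alone (permutation p = 0.032). Signs also turned in values that never passed the threshold. Slopes on Vegfa became 0.15 for Car9 with the mean of rows; without the 2 farthest, 0.039 for Pecam1 and 0.0090 for Emcn; and with stromal scores 0.17 for Pecam1, 0.12 for Cldn5, 0.12 for Vwf and 0.11 for Emcn. Singly they ran from -0.12 to 0.0019 for Emcn, -0.025 to 0.066 for Kdr, -0.067 to 0.017 for Pecam1 and -0.17 to 0.15 for Vwf. On the endothelial index Vegfa became 0.0039 with centred arrays, 0.026 without the 2 farthest and 0.26 with stromal scores (-0.093 to 0.036 singly), and Vwf -0.013 with ranks, -0.043 without the 2 farthest and -0.032 without the 4 (-0.054 to 0.24 singly). On the hypoxia index Tek became -0.012 with ranks, -0.080 without the 2 farthest and -0.19 without the 4, Cldn5 -0.083 and -0.11 in the latter settings (-0.034 to 0.071 singly), and without the 4 Pecam1 became -0.017 and Emcn -0.11. Correlations with Vegfa turned to 0.082 for Pecam1 and 0.013 for Emcn without the 2 farthest, and singly ran from -0.14 to 0.037 for Pecam1, -0.17 to 0.0029 for Emcn and -0.060 to 0.15 for Kdr. Vwf and the hypoxia index in 23 tumours had -0.14 without the 2 farthest and -0.13 without the 4. Among all values, quantile normalization kept direction and side of the threshold for 90 and ended the calls of Mmrn1 and Cnn1 on Vegfa and Postn and Insm1 on the endothelial index; centring kept 90 and ended those of Postn and Insm1; the mean of rows kept 92. Ranks kept 49 and weakened 18: beside both counts above, Pdk1, Higd1a and Cnn1 on Vegfa, Postn, Acta2 and Insm1 on the endothelial index, and Flt1, Thbs1, Thbs2, Unc5b, Pdgfb, Pdgfrb, Ecscr, Chgb, Scg3 and Foxa1 on the hypoxia index. The cause of these changes was not tested. No paired analysis was possible because all tumours form 1 group. The files give no background signal per array, so how far a gene lies above it is not known.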

Other observations

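A minority of the genes in some of the other vessel lists passed on the hypoxia index, where 4.58% of all genes rose and 2.58% fell. Of the other ligands 1 of 7 rose, Pgf, which encodes placental growth factor, a ligand of Flt1 (0.91 ± 0.17 log2 per SD of the index, limma adjusted p = 0.00230). Of the tip cell genes 2 of 7 rose, the netrin receptor gene Unc5b (0.51 ± 0.10, limma adjusted p = 0.00312) and Pdgfb (0.25 ± 0.06, 0.0114). Of the angiogenesis inhibitors 2 of 5 rose, the thrombospondin genes Thbs1 (0.49 ± 0.14, limma adjusted p = 0.0353) and Thbs2 (0.92 ± 0.22, 0.0129). Of the pericyte genes 1 of 8 rose, Pdgfrb (0.36 ± 0.11, limma adjusted p = 0.0470), and of the 14 endothelial index genes 1, Ecscr (0.29 ± 0.07, 0.0130). None of the other 4 receptors passed in limma, with 3 at an unadjusted p under 0.05. Without P471, P966, P425 and P1276, the limma adjusted p was 0.230 for Pgf, 0.800 for Unc5b, 0.501 for Pdgfb, 0.491 for Thbs1, 0.762 for Thbs2, 0.626 for Pdgfrb and 0.953 for Ecscr, so none of them passed. With single tumours left out, Pdgfb, Thbs2 and Ecscr lost their calls without P966 (limma adjusted p of 0.0725, 0.116 and 0.0994) or P1276 (0.0861, 0.107 and 0.111), Thbs1 without P966, P471, P1276, P1469 or P268 (0.0508 to 0.205) and Pdgfrb without any 1 of 14 tumours, up to 0.199 without P966.

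Epithelial and neuroendocrine lists were read in the same fits. On Vegfa, 0 of 5 luminal, 0 of 8 neuroendocrine and 0 of 6 mitosis genes passed in limma, with 0, 0 and 1 at an unadjusted p under 0.05, and in the same fit 0 of 5 adipose, 0 of 5 T cell, 0 of 8 macrophage, 0 of 8 fibroblast and 0 of 5 platelet genes passed, with 4, 3, 0, 1 and 0. On the endothelial index 1 neuroendocrine gene fell, Insm1, a transcription factor of neuroendocrine cells (-0.44 ± 0.10, limma adjusted p = 0.0338; 0.262 without P471, P966, P425 and P1276), and 0 luminal and 0 mitosis genes passed in limma, with 1 and 0 at an unadjusted p under 0.05. Insm1 also lost its call without any 1 of 8 tumours, up to a limma adjusted p of 0.101 without P966. On the hypoxia index 2 of 8 neuroendocrine genes fell, the granin genes Chgb (-0.81 ± 0.23, limma adjusted p = 0.0303) and Scg3 (-0.89 ± 0.24, 0.0242). Of the luminal genes 1 of 5 fell, the transcription factor gene Foxa1 (-0.77 ± 0.15, limma adjusted p = 0.00334). The other 4 luminal genes had slopes above 0 that did not pass in limma: 0.89 for Krt8, 0.73 for Cdh1, 0.70 for Krt18 and 0.32 for Epcam. Without P471, P966, P425 and P1276, Chgb (limma adjusted p = 0.847), Scg3 (0.605) and Foxa1 (0.578) did not pass. Chgb and Scg3 also lost their calls without P966 (limma adjusted p of 0.177 and 0.157), P1276 (0.144 and 0.131) or P471 (0.0999 and 0.0825), and Chgb without P502 (0.0501).

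Some genes near Cdh5 and Vwf on the chromosome, in the order of measured protein-coding genes in the RefSeq table, were also high in the tumours at the upper end. In P474, where Cdh5 was 3.07 log2 above its median, the adjacent gene Cdh11 was 1.66 above its own, and both were the highest of the 27 tumours. In P569, P803 and P1469, the 3 tumours with the highest Vwf, the adjacent gene Cd9 was 1.32, 1.56 and 1.75 above its median and Scnn1a, 4 places away, 4.62, 3.91 and 4.63. These 3 tumours were the highest 3 for Cd9 and for Scnn1a, as for Vwf. Not all neighbours shared this. In P569, P803 and P1469, Plekhg6, which lies between Cd9 and Scnn1a, ranked 6, 9 and 8 from the highest. Kcna1, 3 places from Vwf on the other side, ranked 27, 25 and 26. In P474, Bean1, adjacent to Cdh5 on the other side, ranked 7 and Got2 ranked 23. These genes were chosen after their values were seen, and the relation was not tested.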
